A study of Mus musculus with 6 samples.

Results

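The genes described here control how the liver senses and answers its own sterol supply: Srebf1 and Srebf2, which encode the SREBP transcription factors, Scap, Insig1 and Insig2, which escort or retain them, Mylip, which acts on the LDL receptor, and Stard4 and Npc1l1, which move sterols. They were picked by gene symbol for their roles, with earlier results of these data known, and all 8 were found among the 32212 rows of the count table. Livers came from male mice of C57BL/6 background, 2 yr old and on normal chow diet, of which 3 were wild type (WT) and 3 were CgA-KO, lacking the prohormone chromogranin A. The labels do not describe the knockout allele, the hour of collection or the feeding state. RNA with poly(A) tails from each liver was sequenced as a separate library, and the question put to these genes was whether CgA-KO livers differed from WT livers.

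SREBPs are made as precursors in the membrane of the endoplasmic reticulum, bound to the escort protein Scap. When sterols are scarce, Scap carries the precursor to the Golgi, where the proteases encoded by Mbtps1 and Mbtps2 release the active factor. When sterols are plentiful, the Insig proteins hold Scap and the precursor back. SREBP-2 chiefly drives cholesterol synthesis and LDL uptake, and SREBP-1c, the main Srebf1 product of the liver, drives fatty acid synthesis and is induced by insulin and by the sterol-sensing receptor LXR. Insig1 is itself a SREBP target, whereas mouse liver has a form of Insig2 from a separate start site that is repressed by insulin and rises in fasting. The protein of Mylip, also called IDOL, is a ubiquitin ligase induced by LXR that sends the LDL receptor to degradation.

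Promoters are shown for the 2 retention genes, which moved in opposite directions below, and for Srebf2, which among the 7 genes with a promoter window, all but Stard4, was the one with a match to sterol response element (SRE)-like letters. The sequences are from RefSeq on GRCm38.p6, read 5′ to 3′ on the gene's strand and ending before the first annotated exon base of the window. Capitals mark NF-Y (CCAAT), E-box (CACGTG) or SRE-like (TCACNCCA) letters on either strand. The SRE-like and NF-Y letters can share their CCA.
Insig1 (chr5:28071162-28071362, + strand): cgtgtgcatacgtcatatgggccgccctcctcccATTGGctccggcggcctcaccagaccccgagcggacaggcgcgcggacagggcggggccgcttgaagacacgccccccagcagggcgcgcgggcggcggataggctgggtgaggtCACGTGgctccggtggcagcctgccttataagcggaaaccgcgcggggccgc
Insig2, upstream start (chr1:121332590-121332839, - strand): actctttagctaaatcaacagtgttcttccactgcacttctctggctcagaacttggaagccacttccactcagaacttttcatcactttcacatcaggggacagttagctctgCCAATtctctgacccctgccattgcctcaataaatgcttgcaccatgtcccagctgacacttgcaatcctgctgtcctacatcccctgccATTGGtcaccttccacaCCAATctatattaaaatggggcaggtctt
Insig2, next start (chr1:121328025-121328274, - strand): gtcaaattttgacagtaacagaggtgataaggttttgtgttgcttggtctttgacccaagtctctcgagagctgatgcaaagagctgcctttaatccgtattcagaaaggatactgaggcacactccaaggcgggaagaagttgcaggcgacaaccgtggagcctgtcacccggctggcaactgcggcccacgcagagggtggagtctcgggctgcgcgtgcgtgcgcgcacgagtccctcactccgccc
Srebf2 (chr15:82147019-82147180, + strand): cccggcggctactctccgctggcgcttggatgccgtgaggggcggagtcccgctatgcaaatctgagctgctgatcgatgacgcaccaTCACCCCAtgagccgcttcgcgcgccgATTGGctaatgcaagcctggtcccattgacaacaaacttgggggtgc

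Matches were counted in windows of 300 bases, from 250 before to 50 after a RefSeq start, of which 7 of the 8 genes had 12. Counting from the RefSeq start, Srebf2 held TCACCCCA at position -162 and ATTGG, the NF-Y letters of the opposite strand, at -135. SRE-like letters occurred in 4.36% of 32851 such windows of all genes, and together with NF-Y letters in 1.67%. These shares are per window, and Srebf2 was shown because it held the only SRE-like match of the 12 windows searched. They therefore do not measure how rare such a match is among 12 windows. Insig1 held NF-Y letters at -216 and an E-box at -101, where 37.4% and 7.15% of all windows held these letters. The upstream Insig2 start had 3 NF-Y matches, at -136, -46 and -29, and no E-box, while the next start had none of the 3 motifs. The table of counts holds a single row for Insig2, so RNA from its separate starts was not told apart, and the same applies to the SREBP-1a and SREBP-1c forms of Srebf1.

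The libraries held between 10558616 and 31087453 counts, with WT replicate 1 the shallowest. Chga, the targeted gene, had 0 counts in every library, WT included, so the genotype labels could not be checked on it. Levels are given as CPM, a count relative to the library's total, scaled with edgeR's TMM factors, which adjust for differences in RNA composition. As the samples were whole liver, fewer cells of a type and less RNA per cell cannot be told apart. Of 11 hepatocyte markers 0 were called by edgeR and limma-voom and 1 by DESeq2, 1 had an unadjusted p below 0.05, and the median log2 fold change was -0.18. Their summed level overlapped between the genotypes, with 64582 to 107711 CPM in WT and 57052 to 95475 CPM in CgA-KO livers. Of 12 Kupffer cell markers, 10 were called higher (median 3.03), and their sum ranged from 144 to 351 CPM in WT and from 1465 to 2083 CPM in CgA-KO livers, with WT replicate 1 the highest of WT. Every Kupffer cell marker had counts in every library. Over all 13867 genes tested, edgeR called 12.4%, 8.60% as higher and 3.84% as lower, and 4032 had an unadjusted p below 0.05. Of the markers tested, 4 of 8 for monocytes and dendritic cells, 4 of 7 for neutrophils, 5 of 8 for T and NK cells and 2 of 8 for stellate cells were also called higher, 1 of 8 for sinusoidal endothelium was higher and 1 lower, and 0 of 7 for B and plasma cells and 0 of 5 for bile duct cells were called by edgeR, DESeq2 or limma-voom, with 0 and 1 at an unadjusted p below 0.05. The Kupffer cell count stayed between 7 and 10 with a library left out, but the smaller counts depended on single libraries. Without WT replicate 3 the calls for monocytes and dendritic cells, neutrophils, T and NK cells and stellate cells were 1, 0, 0 and 0, without WT replicate 2 they were 1, 2, 0 and 1, and without CgA-KO replicate 2 they were 2, 1, 2 and 0. Without CgA-KO replicate 1 the T and NK cell and stellate cell calls were 3 and 0, and without WT replicate 1 they were 2 and 4. Without WT replicate 1 the endothelial calls were 4. Filtering on a total of at least 1 count left 2 neutrophil and 1 T and NK cell calls, and filtering on at least 10 counts in every library left 2 of each. With limma-voom 2 T and NK cell markers were called, with DESeq2 4 endothelial markers, and with library size alone 1.

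Among the 8 genes, Insig2 and Mylip rose and Insig1, Srebf1 and Stard4 fell in CgA-KO livers (edgeR, Benjamini-Hochberg adjusted p below 0.05). Srebf2 and Scap were not called, and Npc1l1 was too low to be tested. So 5 of the 8 genes were called, 2 higher and 3 lower, where 12.4% of the 13867 genes tested were called, 8.60% as higher and 3.84% as lower. The range of the 3 CgA-KO livers lay outside that of the 3 WT livers in 7 of the 8 genes, against 33.5% of all genes tested. For each of these 7, the exact two-sided permutation test gave p = 0.1, the smallest that 3 livers against 3 allow. Values of a group are given below in the order of replicates 1, 2 and 3, and the error of a log2 fold change is its approximate standard error (SE). Scaling by library size alone moved the median over all genes tested from a log2 value of -0.01 to 0.26, and the share of called genes that were higher from 69.1% to 86.6%, but it kept the direction of all 7 genes tested and the call of all 5.

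**Figure D1:**
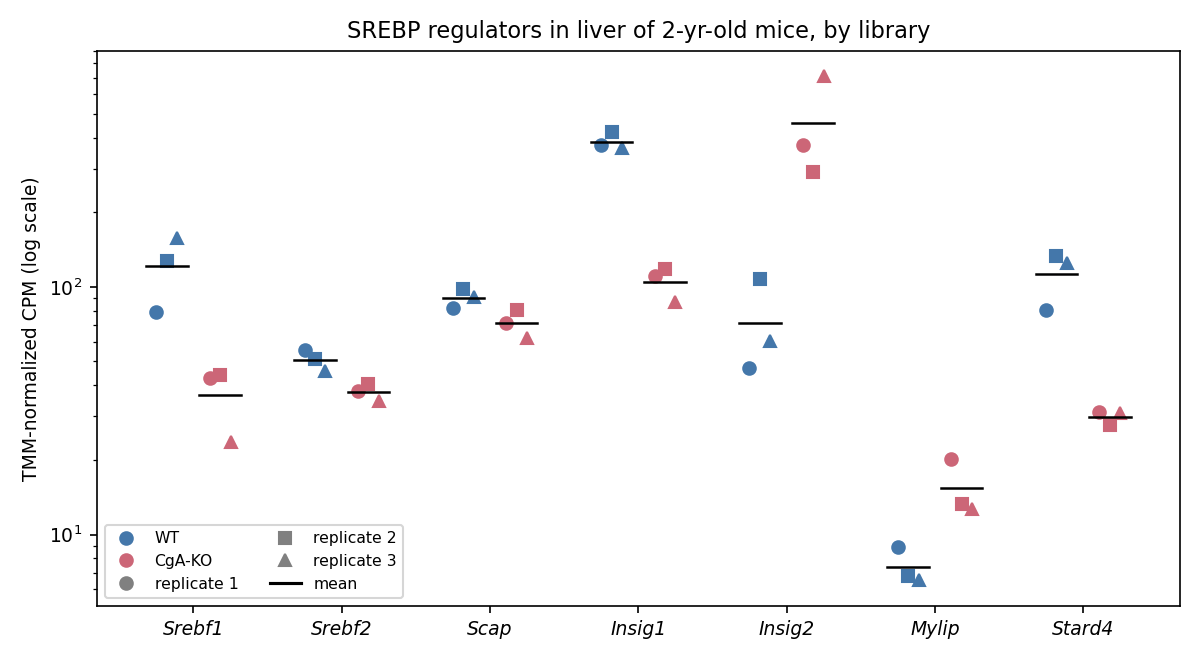
TMM-normalized CPM on a log axis of the 7 genes with measurable RNA, with a symbol for each library (blue, WT; red, CgA-KO) and a black line at the mean of 3 livers. CgA-KO livers lay above all WT livers for Insig2 and Mylip and below them for the other 5 genes, with Scap and Srebf2 the closest.

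Insig2 (chr1:121304353-121332589) had the largest change of the 8 genes. It was at 47.1, 108 and 60.2 CPM in WT livers and at 374, 290.1 and 712 CPM in CgA-KO livers. The lowest CgA-KO liver was thus 2.69-fold above the highest WT liver, although the livers of a genotype spread 2.29-fold in WT and 2.45-fold in CgA-KO. The mean rose 6.39-fold, from 71.7 ± 31.9 to 459 ± 223 CPM (SD over 3 livers, log2 2.68 ± 0.43 SE, edgeR adjusted p = 0.00778). CgA-KO replicate 3 was the highest, and without it the log2 value was 2.25. Without WT replicate 3 the call was lost (log2 2.56, adjusted p = 0.0512). The counts behind these levels ran from 526 to 15881.

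Insig1 (chr5:28071363-28078662), the retention gene that is itself a SREBP target, went the other way. Its levels were 376, 421 and 364 CPM in WT and 111, 118 and 86.7 CPM in CgA-KO livers. Both groups were tight, and the lowest WT liver was 3.08-fold above the highest CgA-KO liver. From 387 ± 30.5 CPM the mean fell to 105 ± 16.4 CPM, 3.68-fold (log2 -1.88 ± 0.22 SE, edgeR adjusted p = 0.00346). The call held with each library left out, at adjusted p-values of at most 0.0178.

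Because both Insig proteins act on the same Scap complex, the counts of their genes were also set against each other within each library, a ratio that scaling does not touch. WT livers held 7.96, 3.91 and 6.03 Insig1 counts for each Insig2 count. CgA-KO livers held 3.38, 2.46 and 8.21 Insig2 counts for each Insig1 count. The order of the 2 genes was therefore inverted in every CgA-KO liver. On the log2 scale the Insig1 to Insig2 ratio was 2.52 ± 0.52 in WT and -2.03 ± 0.90 in CgA-KO livers (SD, n = 3), a difference of -4.55, or 23.4-fold (exact permutation test, two-sided, p = 0.1, the smallest possible). When single libraries were dropped, this difference stayed between -4.91 and -4.05. Counts are not per length here, but the exons of the 2 genes differ little in merged length (3.09 and 3.47 kb).

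**Figure D2:**
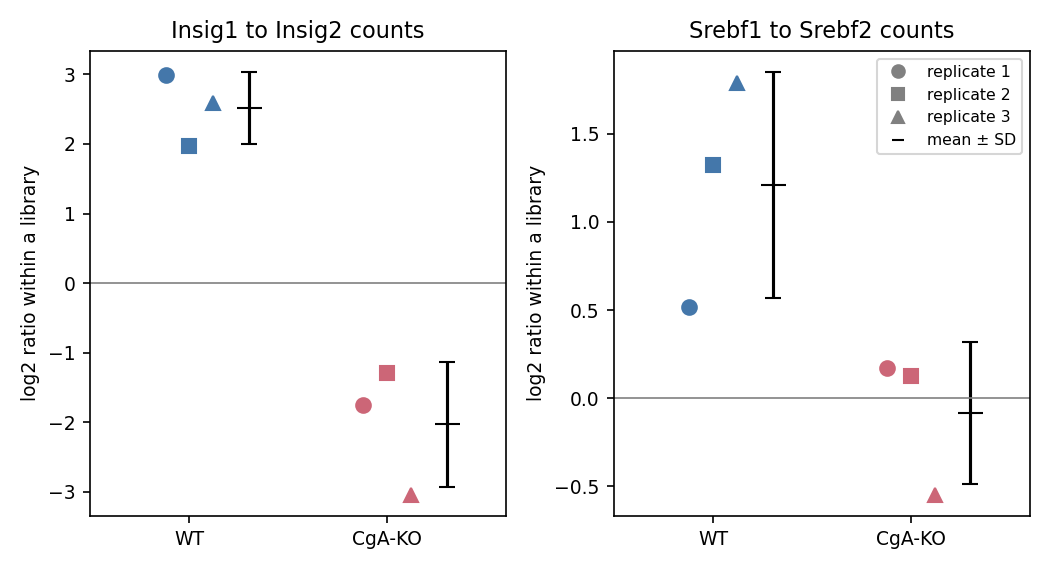
Log2 ratio of counts within each library for Insig1 to Insig2 (left) and Srebf1 to Srebf2 (right), with mean and SD of 3 livers beside the points and a grey line at equal counts. The Insig1 to Insig2 ratio was above 0 in all WT and below 0 in all CgA-KO livers, while the Srebf1 to Srebf2 ratios of the genotypes came close, at 0.52 in WT replicate 1 and 0.17 in CgA-KO replicate 1.

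Of the SREBP genes themselves, Srebf1 (chr11:60199089-60222581) fell. It was at 79.4, 128 and 158 CPM in WT livers and at 42.7, 44.0 and 23.6 CPM in CgA-KO livers. The groups did not overlap, with WT replicate 1 the lowest of WT and CgA-KO replicate 3 the lowest of all. The mean went from 122 ± 39.4 to 36.8 ± 11.4 CPM, 3.31-fold lower (log2 -1.73 ± 0.32 SE, edgeR adjusted p = 0.0128). The call was lost without WT replicate 2 (log2 -1.69, adjusted p = 0.0513) or WT replicate 3 (log2 -1.50, adjusted p = 0.0553), in fits with 2 WT livers. Rai1 overlaps Srebf1 on the opposite strand, and 2 miRNA genes also overlap it.

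Srebf2 (chr15:82147181-82205379), the factor of the cholesterol branch, was not called. Its levels were 55.5, 51.0 and 45.7 CPM in WT and 37.9, 40.4 and 34.5 CPM in CgA-KO livers. These ranges did not overlap, but the nearest livers were only 1.13-fold apart. The means were 50.7 ± 4.94 and 37.6 ± 2.96 CPM, a log2 value of -0.43 with a 95% interval from -0.81 to -0.06 (unadjusted p = 0.0286, edgeR adjusted p = 0.123). No processing or left-out library brought its adjusted p below 0.0993. The Srebf1 to Srebf2 ratio of counts was 1.43, 2.50 and 3.45 in WT livers and 1.13, 1.09 and 0.684 in CgA-KO livers. On the log2 scale it was 1.21 ± 0.64 and -0.08 ± 0.40 (SD, n = 3), a difference of -1.29 (exact permutation test, two-sided, p = 0.1), which stayed between -1.64 and -1.0 with single libraries left out.

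Scap (chr9:110333288-110384950), the escort shared by both SREBPs, had the smallest difference of the genes tested. WT livers were at 82.1, 98.1 and 91.0 CPM and CgA-KO livers at 71.3, 80.8 and 62.5 CPM. The nearest livers were 1.02-fold apart. Means of 90.4 ± 8.0 and 71.5 ± 9.16 CPM gave a log2 value of -0.34 with a 95% interval from -0.76 to 0.08 (edgeR adjusted p = 0.263), and with scaling by library size alone this was -0.06. Within each genotype the 3 livers had the same order for Scap as for the summed hepatocyte markers. Insig1 and Srebf2 matched the sums of other cell types in the same way, as given below. The part of hepatocyte RNA in the Scap value was not tested.

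Mylip (chr13:45389742-45412022) rose from a low level. It had 8.87, 6.81 and 6.52 CPM in WT and 20.2, 13.3 and 12.7 CPM in CgA-KO livers, from 99 to 436 counts per library. The lowest CgA-KO liver was 1.44-fold above the highest WT liver. The means of 7.40 ± 1.28 and 15.4 ± 4.19 CPM differed 2.09-fold (log2 1.06 ± 0.25 SE, edgeR adjusted p = 0.0281). Of the 5 called genes it was the least stable. Without WT replicate 2, WT replicate 3 or CgA-KO replicate 1 its adjusted p was 0.0834, 0.126 and 0.105, with log2 values of 1.01, 0.98 and 0.85. The order of the 3 livers was the same for Mylip as for the summed Kupffer cell markers in both genotypes. Such matches were not particular to Mylip and Scap. In both genotypes Insig1 had the order of the summed stellate cell markers, and Srebf2 that of the summed sinusoidal endothelial markers. The part of macrophage RNA in the rise of Mylip was not tested.

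Stard4 (chr18:33199355-33213862) encodes a cytosolic carrier that moves sterol between membranes and is a SREBP-2 target. WT livers held 80.6, 133 and 124 CPM and CgA-KO livers 31.2, 27.6 and 31.0 CPM. All CgA-KO livers were close together, and the lowest WT liver was 2.58-fold above them. The mean fell 3.77-fold, from 113 ± 28.2 to 29.96 ± 2.03 CPM (log2 -1.91 ± 0.23 SE, edgeR adjusted p = 0.00366), and no left-out library raised its adjusted p above 0.0198. The study named Stard4 from these same libraries, so its call is not independent of that choice. It also measured the genes it chose by qPCR and reported that their expression differed between WT and CgA-KO livers.

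Npc1l1 (chr11:6211013-6230143), the sterol importer known mainly from the intestine, was next to absent. It had 1, 0 and 3 counts in WT and 1, 1 and 2 counts in CgA-KO libraries. A count of 0 allows up to 3 counts, which is between 0.0951 and 0.269 CPM over the 6 libraries, for counting error only. All 6 values lay at or under that limit, so a difference was not detectable at this depth, and no fold is given.

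Per length, as CPM per kb of merged exon, the order of the genes changed with the genotype. In WT livers Insig1 led with a mean of 125, and its lowest liver (118) was far above the others. Srebf1 (21.6), Insig2 (20.6) and Stard4 (20.2) followed with ranges that overlapped. Scap (12.1), Srebf2 (7.06) and Mylip (2.29) came next, each without overlap with its neighbours. In CgA-KO livers Insig2 led with 132 CPM per kb (range 83.5 to 205), ahead of Insig1 (34.0) and Scap (9.61). Srebf1 (6.53), Stard4 (5.36), Srebf2 (5.23) and Mylip (4.77) then overlapped with each other. A merged exon length is a rough measure where a gene has several transcripts, and Insig2 has 14 annotated against 2 of Insig1.

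The genes around this control loop were described in 8 lists, which were written with earlier results of these data known and carry no test as lists. The SREBP target lists held most of the calls, all of them lower, where 3.84% of all genes tested were called lower. Of 19 enzymes of cholesterol synthesis taken as SREBP-2 targets, all had a negative log2 fold change (median -1.45, against -0.01 over all genes), 16 were called lower and 3 were not called. Examples are Msmo1 (log2 -2.17), Sqle (-1.68), Idi1 (-2.14) and Lss (-1.53), each with an adjusted p of at most 0.00411. The study picked Sqle and Idi1 from these same libraries for qPCR, so their calls are not independent of that choice. The summed level of the 19 enzymes was 2930, 3100 and 2424 CPM in WT and 1119, 1373 and 1172 CPM in CgA-KO livers. Without CgA-KO replicate 1 the list had 10 calls. Of 15 tested genes of fatty acid synthesis taken as SREBP-1 targets, 8 were called lower, 7 were not called, and the median was -0.99. Thrsp, a lipogenic regulator (log2 -2.62, adjusted p = 0.00443), Fasn, the fatty acid synthase (-1.74, 0.00498), Me1, the NADPH-forming malic enzyme (-1.78, 0.00603), and Acsl3, an acyl-CoA synthetase (-1.04, 0.00831), were among them. The sums of the 2 genotypes nearly met, at 4714 CPM in WT replicate 1 and 4509 CPM in CgA-KO replicate 1. Scd1, which was not called (edgeR adjusted p = 0.150), was the largest gene of these sums. It held 2923 CPM in WT replicate 1 and up to 3230 CPM in CgA-KO livers, so the sums mostly followed Scd1. It is named outside the naming rule and with its values known. In this list 5 calls were left without WT replicate 3 or without CgA-KO replicate 2.

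Of 17 genes of the machinery that carries and cleaves SREBPs, 0 were called by edgeR, while DESeq2 called 3 and limma-voom 2. In edgeR 5 of the 17 had an unadjusted p below 0.05, as did 4032 of all 13867 genes tested. The list's median was -0.14. Mbtps2, the site-2 protease, and Sec24a, a COPII cargo adaptor, had the smallest p-values. Mbtps2 was at 8.60, 8.89 and 7.03 CPM in WT and 13.3, 12.6 and 13.6 CPM in CgA-KO livers (log2 0.69, adjusted p = 0.0527). Sec24a was at 101, 99.7 and 101 CPM in WT and 76.1, 56.6 and 60.6 CPM in CgA-KO livers (log2 -0.64, adjusted p = 0.0556). DESeq2 (adjusted p of 0.0385 and 0.00975) and limma-voom (0.0467 and 0.0481) called both. Mbtps2 was also called, as higher, with library size alone (0.0350), upper-quartile factors (0.0403) and at least 10 counts in every library (0.0460), so in 5 of the 7 other ways of processing. Of 14 genes for the degradation of sterol sensors in the endoplasmic reticulum, 1 was called, where 12.4% of all genes tested were called. This was Erlin1, which binds sterol-rich membrane. It fell from 43.6 ± 4.84 to 23.9 ± 3.52 CPM (log2 -0.87, adjusted p = 0.0179), a call that was lost without WT replicate 3 (0.0714), without CgA-KO replicate 2 (0.0506) or with scaling by library size alone (0.0795). Under that last scaling another gene of the list, Ube2g2, a ubiquitin-conjugating enzyme, was called higher instead (log2 0.85, adjusted p = 0.0471, against 0.57 and 0.113 with TMM factors).

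Among the other 17 tested lipoprotein receptors, adaptors and partners of MYLIP, 1 was called, where 12.4% of all genes tested were called. Usp2, a deubiquitinase reported to act on the MYLIP protein, was at 72.2, 68.5 and 93.7 CPM in WT and 10.8, 23.4 and 9.95 CPM in CgA-KO livers. It fell by 2.40 on the log2 scale (adjusted p = 0.0055), with adjusted p-values of at most 0.0282 when single libraries were left out. Of 11 LXR and RXR genes and their efflux targets, 2 were called, 1 higher and 1 lower, where 12.4% of all genes tested were called. Their log2 values ran from -0.85 to 2.19. Among those not called, the receptor gene Nr1h3 was at -0.06 (adjusted p = 0.863) and the efflux pump Abca1 at 0.13 (0.695). Abcg8 was at -0.65 (0.227) and Pltp at 0.84 (0.404), also not called. These uncalled genes are named outside the naming rule and with their values known. Abcg1, a sterol exporter abundant in macrophages, rose from 9.40, 3.74 and 3.68 to 29.5, 24.6 and 20.9 CPM (log2 2.19, adjusted p = 0.00938). Abcg5, which exports sterols into bile, fell from 92.8 ± 10.2 to 51.5 ± 11.0 CPM (log2 -0.85, adjusted p = 0.0329), and lost its call without WT replicate 2 (0.0532), WT replicate 3 (0.141), CgA-KO replicate 1 (0.138) or CgA-KO replicate 3 (0.0917) and with scaling by library size alone (0.141). Under that scaling Nr1h2, the other LXR gene, was called higher (log2 0.81, adjusted p = 0.0383), as it was with upper-quartile factors (0.60, 0.0444), against an adjusted p of 0.0631 with TMM factors.

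Of 16 genes for sterol transfer and storage within the cell, 3 were called, all higher, where 8.60% of all genes tested were called higher. The list's median was -0.20. Soat1, which esterifies cholesterol for storage, had 8.06, 3.15 and 2.96 CPM in WT and 27.2, 20.6 and 22.7 CPM in CgA-KO livers (log2 2.35, adjusted p = 0.00809). Npc2, a lysosomal cholesterol carrier (log2 0.83, adjusted p = 0.0307), and Gramd1b, which carries cholesterol from the plasma membrane (1.82, 0.0477), kept their calls in only 2 and 1 of the 6 omissions of a library, and Gramd1b also lost its call in 4 of the 7 other ways of processing, with library size alone (0.0784), upper-quartile factors (0.0556), a total of at least 1 count (0.0688) and at least 10 counts in every library (0.0559). For Abcg1, Soat1 and Gramd1b, as for the sum of the Kupffer cell markers, WT replicate 1 was the highest WT liver. For Npc2 the highest WT liver was WT replicate 2, with 66.0, 83.5 and 56.8 CPM in WT livers. WT replicate 1 was also highest of WT for the marker sums of every other cell type except hepatocytes and stellate cells. In CgA-KO livers the Kupffer cell sum was 2083, 2007 and 1465 CPM, an order that Abcg1 shared and Soat1, Gramd1b and Npc2 did not. The part of macrophage RNA in the rises of Abcg1, Soat1, Gramd1b and Npc2 was not tested. Of 7 trafficking partners of the NPC1L1 protein, 0 were called by edgeR, DESeq2 or limma-voom. In edgeR 3 of the 7 had an unadjusted p below 0.05, as did 4032 of all 13867 genes tested. Flot1 (log2 -0.51, adjusted p = 0.113) and Lima1 (-0.51, 0.121) had the smallest p-values of the 7.

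**Figure D3:**
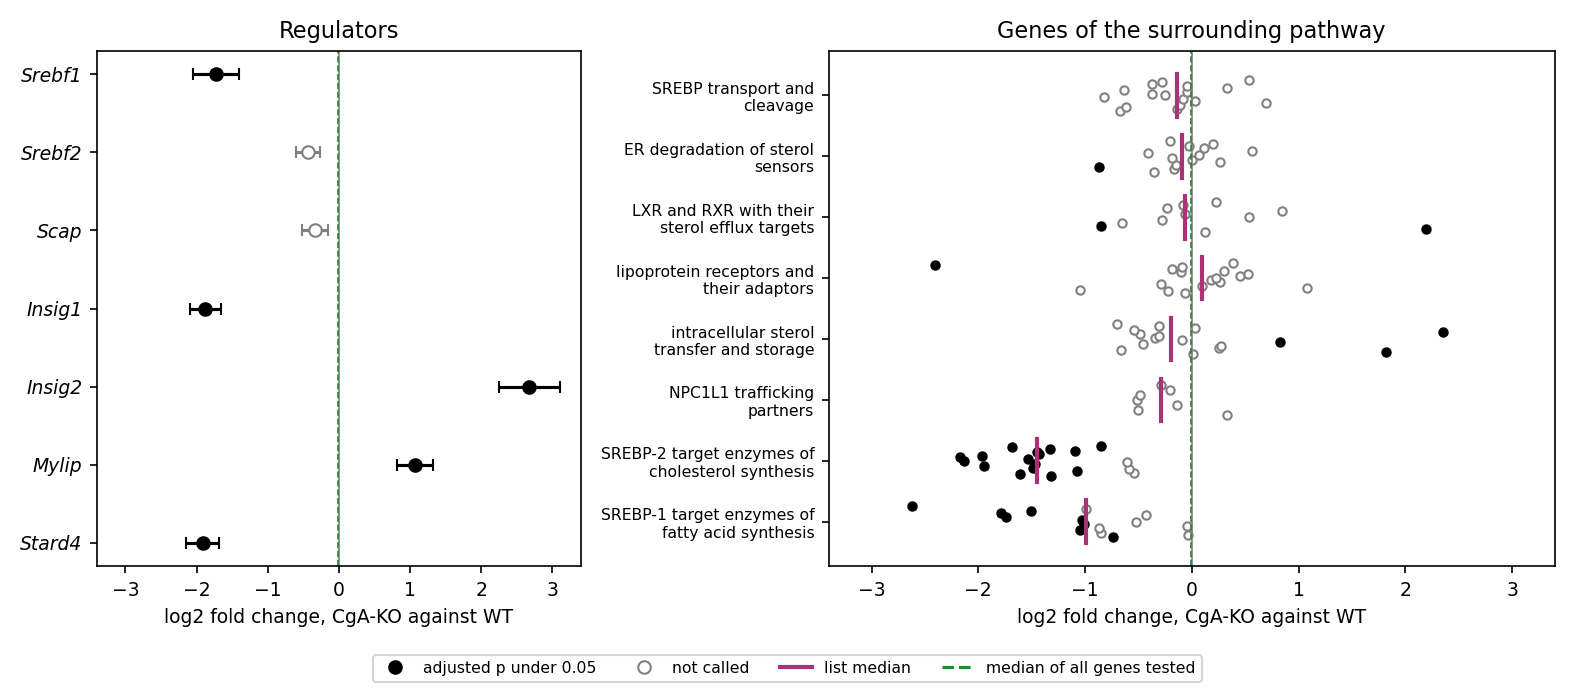
Log2 fold changes of CgA-KO against WT for the 7 tested regulators with their SE (left) and for each gene of the 8 surrounding lists (right). Filled points were called, purple bars are list medians, and only the 2 target lists have medians (-1.45 and -0.99) far from the median of all genes (-0.01, dashed).

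Genes with the most similar profile were sought for each called gene among all genes tested, by the root mean square (RMS) difference of log2 CPM over the 6 libraries, each profile set to 0 at its WT mean. Insig1 was nearest to Car3 (RMS 0.15), Spsb4 (0.18) and Syne2 (0.20), and Srebf1 to Azin2 (0.18), Dclk3 (0.22) and Upp2 (0.24). For Stard4 the nearest were Pklr, the liver pyruvate kinase (0.11), Ak4 (0.15) and the malic enzyme Me1 (0.16), which is also on the list of SREBP-1 targets. Mylip had the closest profiles, those of Tmem181a (0.09), Tmem106a (0.10) and Abi2 (0.13). Insig2 had none within 0.35, and Egr2 (0.35), Rad51ap1 (0.36) and Car13 (0.36) came first.

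**Figure D4:**
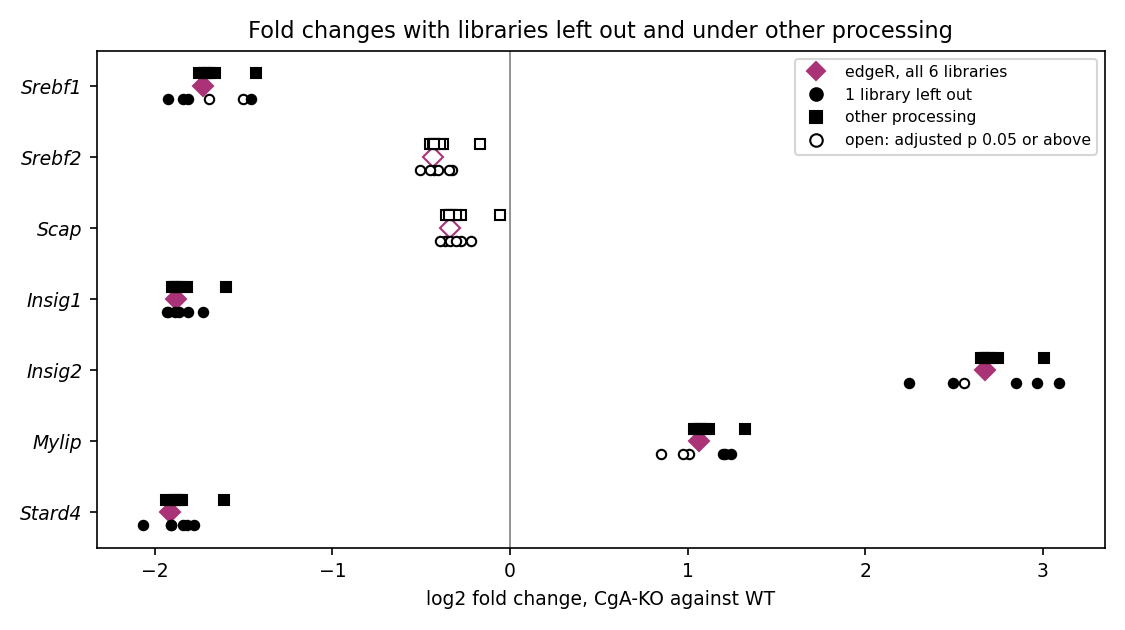
Log2 fold change of each tested gene with all 6 libraries (diamond), with 1 library left out (circles) and under 7 other ways of processing (squares), where open symbols have an adjusted p of 0.05 or above. No gene changed direction, and Srebf1, Insig2 and Mylip lost the call in 2, 1 and 3 of the 6 omissions.

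With the 6 libraries reduced to 5, the number of the 8 genes called was between 2 and 5. It was 3 without WT replicate 2 and 2 without WT replicate 3, when Insig1 and Stard4 were the genes left. Across the whole table these omissions left 841 and 394 called genes of 1726, and leaving out CgA-KO replicate 1 or 2 left 744 and 976.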

How the data were processed

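Libraries were made from poly(A) RNA of 6 livers, 3 per genotype. The authors quantified reads per transcript with Salmon 1.4.0 against GRCm38 and deposited whole-number counts per gene symbol, without scaling; how transcripts were summed to genes is not given in the sources used here. All 6 columns were mapped to samples, and 0 were left over. Replicates differed by more than sampling noise (chi-square per degree of freedom of 29.9 or more), which cannot show whether they came from separate animals. Each was taken as a separate sample because the study's methods give 3 mice per genotype.

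The main test was edgeR 4.0.16, run in R 4.3.3: filterByExpr with a minimum count of 10 (13867 genes kept), TMM factors (0.756 to 1.12), a quasi-likelihood fit with robust dispersion, a two-sided test of genotype and Benjamini-Hochberg adjustment over all genes tested. Dividing the log2 fold change by √F gave its SE, and profiles used log2 CPM with a prior count of 2. Ratios within a library had 0.5 added to each count. Gene positions and merged exon lengths are from GENCODE M21 (GRCm38), promoters from RefSeq (GRCm38.p6). The 8 genes and all lists were chosen with earlier results of these data known. Named list genes were at most 4 called genes per list by p-value, or the 2 smallest p-values where none was called. Alternatives were DESeq2 1.42.0, limma-voom (limma 3.58.1), other scalings and filters, a replicate block, a threshold of 0.01 and leaving out each library. The fits were tested on simulated data. A few genes of the pathway are not reported here. Figures were drawn with matplotlib 3.10.9.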

Additional observations from a re-analysis of the deposited data

How the results depend on the processing

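No result reversed. Under DESeq2, limma-voom, library size alone, upper-quartile factors, both other filters and the replicate block, 5 of the 8 genes stayed called, and at an adjusted p under 0.01 there were 3. With libraries left out, the count of the 8 ran from 2 to 5, and the log2 fold change ran from -1.92 to -1.46 for Srebf1, from 2.25 to 3.09 for Insig2 and from 0.85 to 1.24 for Mylip. Over all genes, 1726 calls became 2592 with DESeq2, 360 at the threshold of 0.01 and between 394 and 2126 with a library left out. The genes for SREBP transport and cleavage, with 0 calls, had 3 with DESeq2, 2 with limma-voom, and 1 each with library size alone, upper-quartile factors and at least 10 counts in every library. Lipoprotein receptors and adaptors had 2 with DESeq2. With a library left out, calls ran from 0 to 1 for degradation of sterol sensors, 1 to 2 for LXR and RXR genes, 1 to 2 for lipoprotein receptors, 1 to 3 for sterol transfer and storage, 10 to 16 for cholesterol synthesis and 5 to 9 for fatty acid synthesis. In these fits fewer livers were tested; the cause of the other changes was not tested.

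Replicate numbers share no stated source, and deviations of same-numbered livers correlated at 0.20, 0.01 and -0.07 over genes, so the numbers were not taken as pairs. With the replicate block 1498 genes and 5 of the 8 were called, and the calls of Abcg5 (adjusted p = 0.0509) and Npc2 (0.0503) were lost, which left 1 LXR and RXR gene; within such pairs the ratios differed by -4.55 and -1.29 (exact sign flips, p = 0.25, the smallest possible with n = 3 pairs). Among the 8, only Npc1l1 was too low to be tested. Mylip had the next fewest counts, from 99 to 436 per library, and the effect of depth on its call was not tested.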
